A study of Mus musculus with 12 samples.

Results

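The genes described here are Nnmt and 9 other genes of hepatic methyl-group metabolism: Mat1a, Gnmt, Gamt, Pemt, Ahcy, Bhmt, Dmgdh, Cbs and Cth. They are 10 of the 25270 genes or unnamed transcript accessions that entered the fit, of which 14633 had a gene symbol. A probe was taken as a member when the accession in the array annotation belonged to one of these symbols. That gave 11 probes, 2 for Pemt and 1 for each of the other 9 genes, and all 10 genes were well above background on all 12 arrays. Nnmt was selected on its log2 change on Wy-14643 diet in the MycF/F,ERT2-Cre genotype, among the lowest of all genes there, so the values of that comparison are a description for all 10 genes: they carry no p-value, and the number called there is given only beside the share of all genes called.

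The study hybridised whole-liver RNA of C57BL/6 mice to 2-colour Agilent arrays, with the liver sample in Cy5 and a pooled liver reference RNA in Cy3 on each array. The 4 groups were MycF/F,ERT2-Cre mice on Wy-14643 diet (4 arrays), MycF/F mice on Wy-14643 diet (3 arrays), MycF/F,ERT2-Cre mice on control diet (4 arrays) and MycF/F mice on control diet (1 array). Wy-14643 is an agonist of the nuclear receptor PPARA and was given at 0.1% of the diet for 2 days. All mice carried the floxed Myc alleles, and the labels call MycF/F,ERT2-Cre "ko" and MycF/F "wt". The promoter that drives ERT2-Cre, any tamoxifen dosing and the age and sex of the mice are not given in the labels. The single MycF/F control array is labelled as pooled liver, with the number of livers not stated. Its group has no replicate spread of its own. Each test that uses it takes the spread from the other groups and assumes that this array varies as theirs do. The labels do not say that the other arrays are separate animals, so p-values measure the spread between these arrays, which may be technical.

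S-adenosylmethionine is the methyl donor of the cell, and the liver makes most of it from methionine through the enzyme that Mat1a encodes. Methyltransferases pass the methyl group to acceptors such as glycine, guanidinoacetate, phosphatidylethanolamine and nicotinamide and leave S-adenosylhomocysteine, which Ahcy hydrolyses to homocysteine. Homocysteine is either remethylated to methionine, with betaine as the donor in the step run by Bhmt, or passed to cysteine through Cbs and Cth.

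The diet and genotype labels were checked first. Between diets in MycF/F,ERT2-Cre livers the PPARA targets Cyp4a14 and Ehhadh were higher on Wy-14643 by 4.72 and 3.68 on the log2 scale, and in MycF/F livers by 4.17 and 3.63. Of the 3 Myc probes, 2 were lower in MycF/F,ERT2-Cre than in MycF/F livers on Wy-14643, by log2 differences of -1.85 and -1.82. Their limma adjusted p, here over all kept probes, was 0.00381 and 0.00558. The brightest Myc probe was at -0.57 (adjusted p = 0.269 in the same fit). The arrays lay on 3 slides, and the 4 arrays of slide 1 had 5.47% to 8.35% of spots marked as outliers, against 0.904% to 1.84% on slides 2 and 3. Marked spots were left out, which is why some of the genes have no value on some arrays. Between 64.6% and 77.1% of spots per array were well above background, and the number of arrays limits the precision.

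Values below are normalised log2 ratios of sample over reference, so 0 means the level of the pooled reference. A gene is said to have risen or fallen where limma's adjusted p, over all genes tested, was under 0.05. On Wy-14643 diet 7 of the 10 genes were counted as lower by this limit in MycF/F,ERT2-Cre livers (Nnmt, Gamt, Bhmt, Gnmt, Cbs, Cth and Dmgdh), where 16.4% of all 25133 genes were called in either direction and 7.27% were lower, and nothing is read from this share because the comparison chose Nnmt. In MycF/F livers, whose arrays are others, 6 of the 10 fell (Nnmt, Gnmt, Bhmt, Gamt, Cbs and Dmgdh), against 3.26% of all 24908 genes tested that fell and 6.53% called in either direction. None of the 10 rose in either genotype. Of the 6 genes with a value on all 8 MycF/F,ERT2-Cre arrays, 4 were lower on Wy-14643 without overlap (Nnmt, Gnmt, Gamt and Dmgdh) and none higher, where 7.52% and 9.52% of all genes with full values lay apart in these directions. The median log2 change of the 10 genes was -1.20 in MycF/F,ERT2-Cre and -1.31 in MycF/F livers, while the median over all genes was 0.03 in MycF/F,ERT2-Cre and -0.00 in MycF/F livers. In bulk liver RNA, fewer cells of a type and less RNA per cell cannot be told apart.

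**Figure D1:**
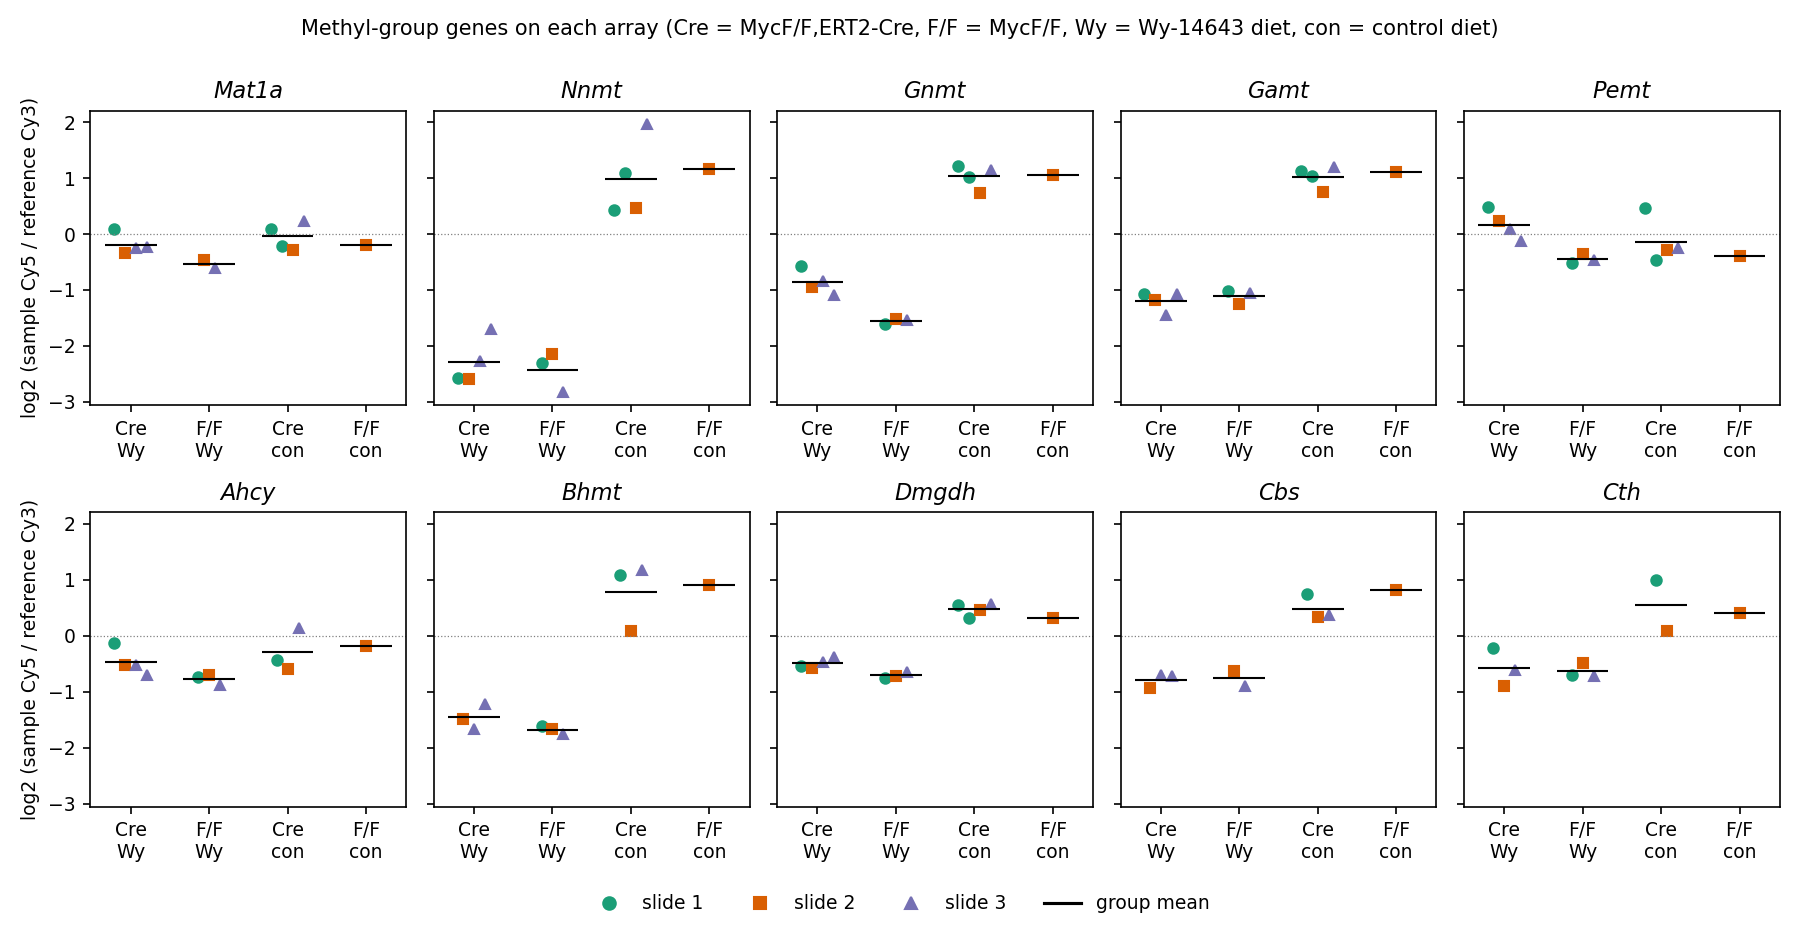
Each point is 1 array; the y axis is the normalised log2 ratio of liver sample to pooled reference, the x axis the 4 groups with the Wy-14643 groups left, marker shape and colour the slide, and the bar the group mean. Nnmt spans the widest range, with all 7 Wy-14643 arrays between -2.82 and -1.69 and all 5 control-diet arrays between 0.43 and 1.97, while Mat1a, Pemt and Ahcy show no such gap.

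Upstream sequences of 3 of the genes that were low together and of Ahcy, which passed in neither genotype, are shown here, to set out which of them hold the 6-base half-site AGGTCA that nuclear receptors such as PPARA recognise. RefSeq windows of the 250 bases before the gene start on GRCm38.p6 were matched for 7 of the 10 genes (8 windows). All 4 windows printed lie on the minus strand, and capitals mark AGGTCA, or TGACCT where the match is on the opposite strand. Bhmt (chr13:93637759-93638008) has 3 matches, Gnmt (chr17:46729166-46729415) has 1, Gamt (chr10:80261013-80261262) has none, and Ahcy (chr2:155074498-155074747) has 1.
Bhmt: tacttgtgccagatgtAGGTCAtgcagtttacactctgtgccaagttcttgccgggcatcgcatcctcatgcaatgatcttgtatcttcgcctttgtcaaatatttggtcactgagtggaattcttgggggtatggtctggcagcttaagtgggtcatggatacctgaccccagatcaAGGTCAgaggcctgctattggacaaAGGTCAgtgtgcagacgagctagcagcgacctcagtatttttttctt
Gnmt: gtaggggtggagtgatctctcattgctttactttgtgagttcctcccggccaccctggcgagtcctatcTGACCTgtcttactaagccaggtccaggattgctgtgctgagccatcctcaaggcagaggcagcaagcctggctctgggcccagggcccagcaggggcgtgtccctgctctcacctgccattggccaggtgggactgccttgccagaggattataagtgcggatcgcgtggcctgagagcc
Gamt: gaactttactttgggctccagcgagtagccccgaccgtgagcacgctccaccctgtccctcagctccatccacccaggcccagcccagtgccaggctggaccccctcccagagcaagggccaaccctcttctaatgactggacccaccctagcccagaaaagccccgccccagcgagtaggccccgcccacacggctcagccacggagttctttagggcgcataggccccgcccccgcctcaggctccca
Ahcy: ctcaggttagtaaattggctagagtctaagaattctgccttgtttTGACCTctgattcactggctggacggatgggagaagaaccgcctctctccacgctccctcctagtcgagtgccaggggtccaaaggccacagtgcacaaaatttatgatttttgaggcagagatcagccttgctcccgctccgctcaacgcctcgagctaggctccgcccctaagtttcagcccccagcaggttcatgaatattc

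The half-site, searched on both strands, was in 3 of the 8 windows of these genes (Bhmt, Gnmt and Ahcy) and in 14% of all 32851 windows of this length. In Bhmt the matches begin 234, 72 and 47 bases before the start, in Gnmt 181 and in Ahcy 205. The direct repeat of AGGTCA, any 1 base and AGGTCA was in none of the 8 windows and in 0.0335% of all. CACGTG, the E-box that Myc recognises and which reads the same on both strands, was in the Cbs window 229 bases before the start and in 6.02% of all windows, and TATAAA was in none of the 8 and in 12.4% of all. A match of letters is a description of these windows and says nothing about binding.

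Nnmt encodes nicotinamide N-methyltransferase, which methylates nicotinamide with S-adenosylmethionine as the donor. Its log2 ratios were -2.58, -2.58, -2.27 and -1.69 in Wy-14643-fed MycF/F,ERT2-Cre livers and -2.31, -2.14 and -2.82 in MycF/F livers on Wy-14643, against 0.43, 1.09, 0.46 and 1.97 in MycF/F,ERT2-Cre livers on control diet and 1.15 in the MycF/F control pool. Every Wy-14643 array lay below every control-diet array, and the gap between the 2 sets was wider than the range within either. In MycF/F,ERT2-Cre livers Nnmt was 9.64-fold lower on Wy-14643 (log2 change -3.27, SE 0.32), the second lowest of 25133 genes. In MycF/F livers it fell 11.9-fold (log2 change -3.58, SE 0.51, limma adjusted p = 0.00117, 3 arrays against 1), the fifth lowest of 24908. Within slides 1, 2 and 3 the difference in MycF/F,ERT2-Cre livers was -3.34, -3.05 and -3.95, and within slide 2, the only slide with the MycF/F control, it was -3.30 in MycF/F livers.

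The unnormalised signals show the same split in the sample channel alone. Nnmt had a median Cy5 signal above local background of 428 scanner units (400 to 674.5) in Wy-14643-fed MycF/F,ERT2-Cre livers and 423 (319 to 579) in MycF/F livers on Wy-14643, against 3067.5 (2009 to 9788) in MycF/F,ERT2-Cre livers on control diet and 5352 in the MycF/F control pool. The Cy3 reference signal on these arrays ran from 3586 to 5596 and from 4399.5 to 5317 on the Wy-14643 arrays of MycF/F,ERT2-Cre and MycF/F mice, against 2957.5 to 5461 on the MycF/F,ERT2-Cre control arrays and 4690.5 on the MycF/F control array. The reference ranges overlapped between the diets, while the sample ranges did not. Nnmt also varied most within a group of the 10 genes on control diet: its SD over the 4 MycF/F,ERT2-Cre control arrays was 0.72, while Dmgdh, the least variable, had 0.11. The high value is MycF/F,ERT2-Cre control replicate 4, whose Cy5 signal of 9788 was the highest of the 12 arrays.

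**Figure D2:**
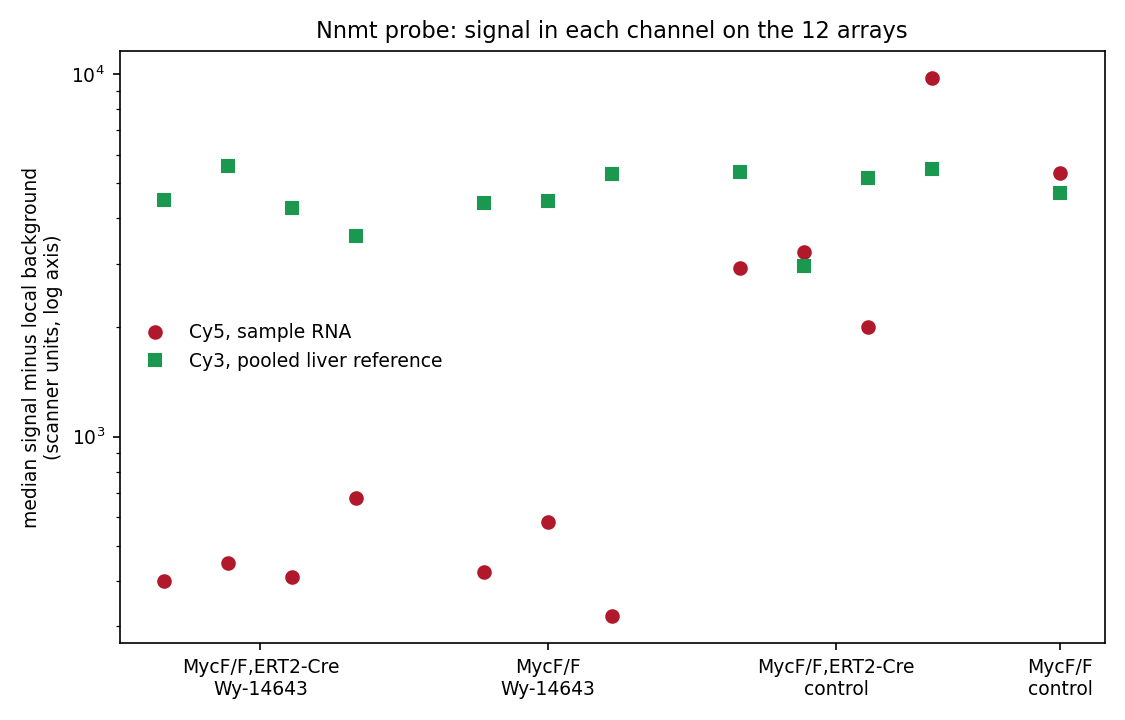
Background-subtracted median signal of the Nnmt probe on each of the 12 arrays in scanner units on a log axis, with circles for the liver sample (Cy5), squares for the pooled reference (Cy3) and the Wy-14643 groups left of the control groups. Cy5 lies between 319 and 674.5 on the 7 Wy-14643 arrays and between 2009 and 9788 on the 5 control-diet arrays, while Cy3 stays between 2957.5 and 5596.

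Gnmt and Gamt, the methyltransferases that use glycine and guanidinoacetate as acceptors, were both low on Wy-14643. Gnmt is an abundant liver enzyme that uses up surplus S-adenosylmethionine. Its log2 ratios were -0.57, -0.94, -0.85 and -1.08 in MycF/F,ERT2-Cre and -1.60, -1.52 and -1.54 in MycF/F livers on Wy-14643, against 1.22, 1.01, 0.74 and 1.15 in MycF/F,ERT2-Cre livers on control diet and 1.06 in the MycF/F control pool. The 2 diets did not overlap in either genotype, and on Wy-14643 the 3 MycF/F arrays all lay below the 4 MycF/F,ERT2-Cre arrays. Gnmt was 3.71-fold lower in MycF/F,ERT2-Cre livers (log2 change -1.89, SE 0.12), and it fell 6.13-fold in MycF/F livers (-2.62, SE 0.20, limma adjusted p = 1.83e-05).

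Gamt makes creatine from guanidinoacetate, and in mammals this step consumes a large part of the methyl groups that the liver transfers. Its probe was printed as 10 spots per array, which were averaged. The log2 ratios were -1.06, -1.18, -1.46 and -1.07 in MycF/F,ERT2-Cre and -1.02, -1.25 and -1.05 in MycF/F livers on Wy-14643, against 1.12, 1.04, 0.75 and 1.20 in MycF/F,ERT2-Cre livers on control diet and 1.10 in the MycF/F control pool. The Wy-14643 arrays of the 2 genotypes overlapped, and none reached a control-diet array. Gamt was 4.66-fold lower in MycF/F,ERT2-Cre livers (log2 change -2.22, SE 0.12) and fell 4.62-fold in MycF/F livers (-2.21, SE 0.19, limma adjusted p = 3.94e-05).

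Pemt, which builds phosphatidylcholine by methylating phosphatidylethanolamine, did not share this pattern. Its brighter probe read 0.48, 0.23, 0.09 and -0.12 in MycF/F,ERT2-Cre and -0.52, -0.36 and -0.46 in MycF/F livers on Wy-14643, against 0.46, -0.46, -0.28 and -0.26 in MycF/F,ERT2-Cre livers on control diet and -0.39 in the MycF/F control pool. The diets overlapped in MycF/F,ERT2-Cre livers through 1 control array, replicate 1. The log2 change was 0.30 (SE 0.18) in MycF/F,ERT2-Cre livers, with a second probe at 0.44, and -0.05 in MycF/F livers (95% interval -0.69 to 0.58, limma adjusted p = 0.975). Without that control array the MycF/F,ERT2-Cre value was 0.50 and past the limit, in 1 of 22 alternative settings.

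Mat1a, which encodes the liver form of methionine adenosyltransferase, and Ahcy, which clears S-adenosylhomocysteine, moved little in MycF/F,ERT2-Cre livers. Neither was past the limit in either genotype. Mat1a was at 0.08, -0.34, -0.25 and -0.24 in MycF/F,ERT2-Cre and -0.46 and -0.61 in MycF/F livers on Wy-14643, against 0.09, -0.21, -0.28 and 0.24 in MycF/F,ERT2-Cre livers on control diet and -0.20 in the MycF/F control pool. The diets overlapped in MycF/F,ERT2-Cre livers, where the log2 change was -0.15 (95% interval -0.44 to 0.14). In MycF/F livers it was -0.34 (95% interval -0.84 to 0.16, limma adjusted p = 0.543, 2 arrays against 1).

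Ahcy was at -0.13, -0.52, -0.53 and -0.70 in MycF/F,ERT2-Cre and -0.74, -0.71 and -0.87 in MycF/F livers on Wy-14643, against -0.43, -0.60 and 0.14 in MycF/F,ERT2-Cre livers on control diet and -0.18 in the MycF/F control pool. The MycF/F,ERT2-Cre groups overlapped, whereas the 3 MycF/F arrays on Wy-14643 were the lowest Ahcy values of the series. Its log2 change was -0.17 (95% interval -0.55 to 0.20) in MycF/F,ERT2-Cre livers and -0.59 in MycF/F livers (95% interval -1.16 to -0.02, limma adjusted p = 0.266). The intervals of Mat1a and Ahcy leave out falls of the size seen for Nnmt, Gnmt, Gamt and Bhmt.

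Bhmt and Dmgdh act one after the other. Bhmt returns a methyl group from betaine to homocysteine and releases dimethylglycine, and Dmgdh oxidises dimethylglycine to sarcosine in mitochondria. Bhmt read -1.48, -1.67 and -1.23 in MycF/F,ERT2-Cre and -1.62, -1.68 and -1.76 in MycF/F livers on Wy-14643, against 1.09, 0.09 and 1.17 in MycF/F,ERT2-Cre livers on control diet and 0.90 in the MycF/F control pool. The diets did not overlap. On slide 1 replicate 1 of both MycF/F,ERT2-Cre groups was marked as an outlier, and these spots read -0.05 on Wy-14643 and 1.77 on control diet where they were kept. Bhmt was 4.74-fold lower in MycF/F,ERT2-Cre livers (log2 change -2.25, SE 0.24) and fell 6.01-fold in MycF/F livers (-2.59, SE 0.35, limma adjusted p = 0.00143).

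Dmgdh read -0.53, -0.57, -0.48 and -0.37 in MycF/F,ERT2-Cre and -0.76, -0.71 and -0.64 in MycF/F livers on Wy-14643, against 0.54, 0.32, 0.45 and 0.57 in MycF/F,ERT2-Cre livers on control diet and 0.32 in the MycF/F control pool. The SD within a group was at most 0.11, and the diets lay apart in both genotypes. Dmgdh was 1.95-fold lower in MycF/F,ERT2-Cre livers (log2 change -0.96, SE 0.08) and fell 2.03-fold in MycF/F livers (-1.02, SE 0.13, limma adjusted p = 0.00051). With Cy5 alone, without the reference channel, Dmgdh was at -1.10 in MycF/F,ERT2-Cre and -0.45 in MycF/F livers. Neither value was past the limit. Bhmt, its paralogue Bhmt2 and Dmgdh are consecutive protein-coding genes on chromosome 13, and Bhmt2 also fell, by log2 changes of -0.94 in MycF/F,ERT2-Cre and -0.95 in MycF/F livers.

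Cbs and Cth carry homocysteine to cystathionine and then to cysteine. Cbs read -0.93, -0.71 and -0.71 in MycF/F,ERT2-Cre and -0.63 and -0.89 in MycF/F livers on Wy-14643, against 0.75, 0.34 and 0.37 in MycF/F,ERT2-Cre livers on control diet and 0.83 in the MycF/F control pool. All Wy-14643 arrays were low and none overlapped a control-diet array. Cbs was 2.41-fold lower in MycF/F,ERT2-Cre livers (log2 change -1.27, SE 0.14) and fell 3.00-fold in MycF/F livers (-1.58, SE 0.20, limma adjusted p = 0.00174), although with Cy5 alone the MycF/F value was not past the limit (-1.58, adjusted p = 0.0846).

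Cth read -0.22, -0.90 and -0.61 in MycF/F,ERT2-Cre and -0.70, -0.48 and -0.72 in MycF/F livers on Wy-14643, against 1.00 and 0.09 in MycF/F,ERT2-Cre livers on control diet and 0.40 in the MycF/F control pool. The diets did not overlap, but only 2 MycF/F,ERT2-Cre control arrays gave a value. The log2 change was -1.12 (SE 0.26) in MycF/F,ERT2-Cre livers and -1.04 (SE 0.33, limma adjusted p = 0.117) in MycF/F livers. The MycF/F,ERT2-Cre value was no longer past the limit in 5 of 22 alternative settings. Among these it was -0.62 with Cy5 alone and -0.67 without control replicate 1. In MycF/F livers the value ran from -1.23 to -0.40 over 21 alternative settings and was past the limit in 4 of them. The MycF/F value passed without slide 1 (-1.01, adjusted p = 0.00753), with slide as a fixed block (-1.23, adjusted p = 0.0491) and without MycF/F,ERT2-Cre control replicate 1 or 3 (adjusted p = 0.0349 and 0.037).

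**Figure D3:**
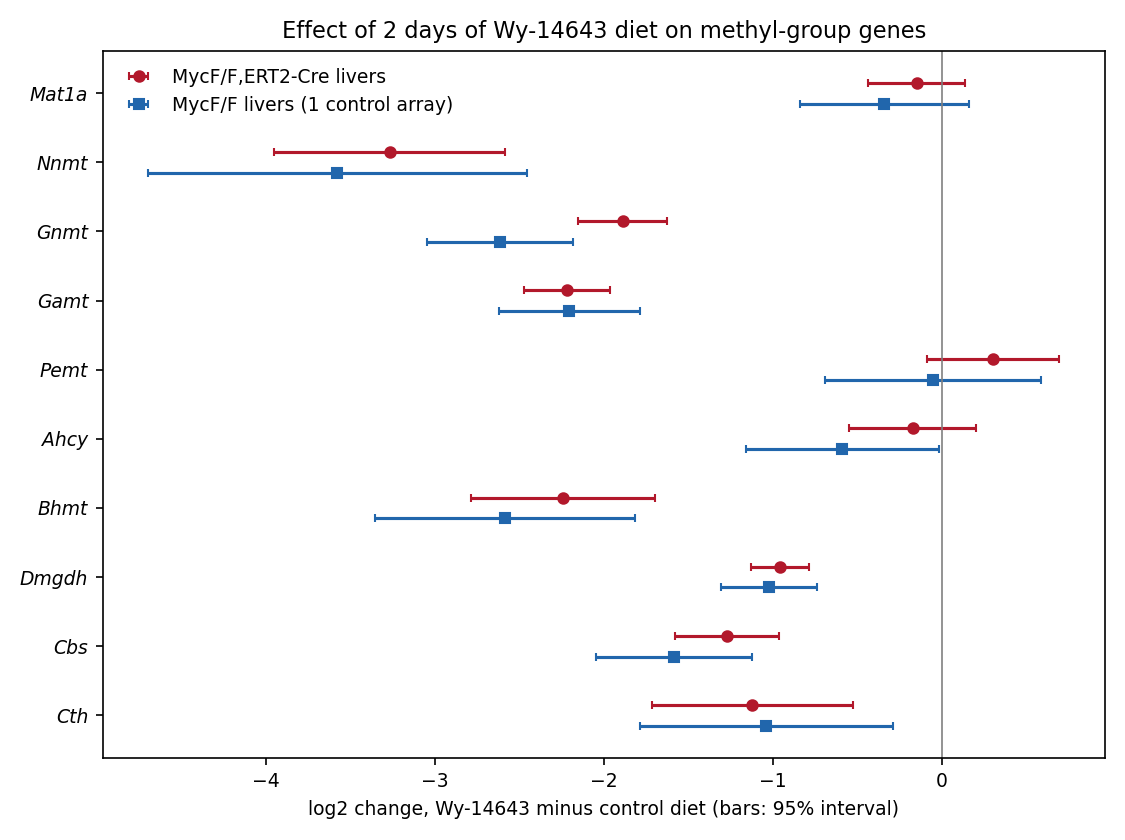
Log2 change on Wy-14643 against control diet for the 10 genes, with 95% intervals; circles are MycF/F,ERT2-Cre livers and squares MycF/F livers, whose control is 1 array. The changes range from -3.27 (Nnmt) to 0.30 (Pemt) in MycF/F,ERT2-Cre and from -3.58 (Nnmt) to -0.05 (Pemt) in MycF/F livers.

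The 2 genotypes were next set against each other on Wy-14643 diet, which compares the levels of these genes, not their responses to the diet. This comparison shares the MycF/F,ERT2-Cre Wy-14643 arrays with the one that chose Nnmt. None of the 10 genes was past limma's adjusted limit, where 0.107% of all 25149 genes were (0.0239% higher and 0.0835% lower), and 3 of them had an unadjusted p under 0.05 (Gnmt, Pemt and Dmgdh). All 3 were higher in the MycF/F,ERT2-Cre genotype. Of the 6 genes with a value on all 7 Wy-14643 arrays, 4 had groups that did not overlap, with MycF/F,ERT2-Cre higher (Gnmt, Pemt, Ahcy and Dmgdh), where 5.33% of all genes with full values did so in this direction and 5.22% in the other.

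Gnmt was 1.62-fold higher in MycF/F,ERT2-Cre than in MycF/F livers on Wy-14643, at means of -0.86 ± 0.21 (SD, n = 4) and -1.55 ± 0.04 (SD, n = 3). The log2 difference was 0.69 (SE 0.13, 95% interval 0.41 to 0.98), with an unadjusted p of 0.000191 and a limma adjusted p of 0.0889. Within slides 1, 2 and 3 it was 1.03, 0.58 and 0.57. With slide as a random block the adjusted p was 0.044, the single setting under which any of the 10 genes passed in this comparison. Leaving out each array in turn kept the difference between 0.60 and 0.77, with adjusted p between 0.054 and 0.321. Over all 22 alternative settings it lay between 0.57 and 0.77, but the limma adjusted p ran from 0.044 to 0.9999.

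Pemt was 1.53-fold higher in Wy-14643-fed MycF/F,ERT2-Cre livers (log2 difference 0.62, SE 0.19, limma adjusted p = 0.286), and the values within slides 1, 2 and 3 were 1.00, 0.59 and 0.44. Its second probe gave 0.63 (adjusted p = 0.346 in a fit of all kept probes, where the brighter probe had 0.299). Dmgdh differed by 0.22 (SE 0.09, adjusted p = 0.48) and by 0.23, 0.14 and 0.22 within the slides. Over 22 alternative settings the Dmgdh difference lay between 0.01 and 0.25. Ahcy differed by 0.30 (SE 0.17, adjusted p = 0.75), and Mat1a by 0.35 (SE 0.16, adjusted p = 0.612). For Nnmt the difference was 0.14 (95% interval -0.60 to 0.88), with -0.27, -0.44 and 0.84 within slides 1, 2 and 3, so its sign was not the same on all slides. Gamt differed by -0.09 (95% interval -0.36 to 0.19). The remaining values were 0.22 for Bhmt, 0.06 for Cth and -0.03 for Cbs, each with a 95% interval that holds 0.

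**Figure D4:**
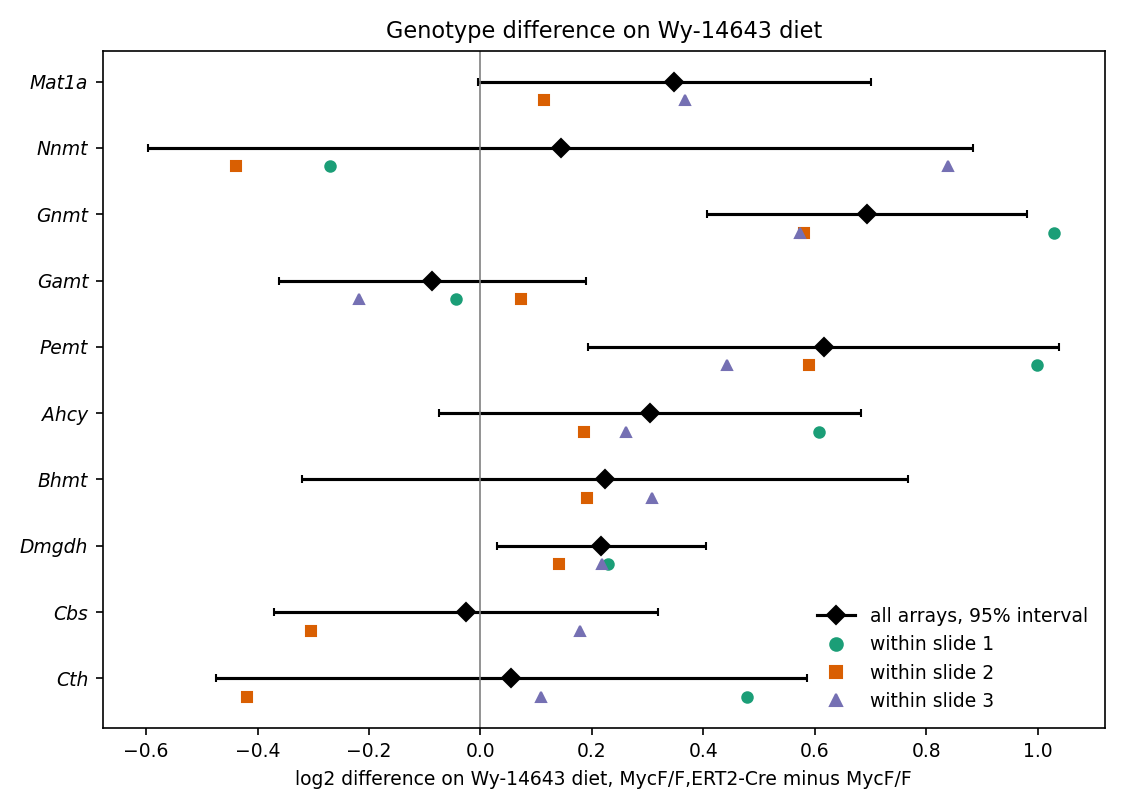
Log2 difference of MycF/F,ERT2-Cre minus MycF/F livers on Wy-14643 diet, with diamonds and 95% intervals for all arrays and small markers for the difference within each slide. Gnmt (0.69), Pemt (0.62) and Dmgdh (0.22) have intervals above 0 and positive values on all 3 slides, while Nnmt (0.14) has slide values on both sides of 0.

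On control diet the contrast rests on 1 MycF/F array. No gene of the 24892 tested was past limma's adjusted limit (447 had an unadjusted p under 0.05), none of the 10 genes had an unadjusted p under 0.05, and their log2 differences ran from -0.34 (Cbs) to 0.26 (Pemt). The difference between the Wy-14643 effects of the 2 genotypes was likewise past the limit for none of 24872 genes (541 with an unadjusted p under 0.05). Among the 10, Gnmt had the largest such difference, 0.73 (SE 0.23, 95% interval 0.22 to 1.23, unadjusted p = 0.00898, limma adjusted p = 1.00), which means a smaller fall in MycF/F,ERT2-Cre livers. For Nnmt it was 0.31 with a 95% interval from -1.0 to 1.62, and for Gamt -0.01 with an interval from -0.50 to 0.47, so the data bound the difference more closely for Gamt than for Nnmt.

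Genes next to the 10 in the same pathways were then counted from lists. Of all genes, 9.1% were higher and 7.27% lower on Wy-14643 in MycF/F,ERT2-Cre livers, and 3.26% each way in MycF/F livers. Several listed genes had a value on only some of the MycF/F,ERT2-Cre control arrays, among them Bhmt2, Chkb, Pipox, Cdo1, Got1, Mettl7b, Tdo2 and Qprt. In the rest of the methionine cycle 2 of 7 genes tested rose and 1 fell in both genotypes. Mat2a, the form of methionine adenosyltransferase found mainly outside the adult hepatocyte, rose by 0.54 in MycF/F,ERT2-Cre and 0.81 in MycF/F livers. Bhmt2 was the gene that fell, and the list's median log2 change was 0.14 in MycF/F,ERT2-Cre livers.

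Of 14 genes of choline, betaine and sarcosine tested, 6 rose and 4 fell in MycF/F,ERT2-Cre livers, and 3 rose and 2 fell in MycF/F livers. Chkb (choline kinase) and Chpt1 (choline phosphotransferase) rose most in MycF/F,ERT2-Cre livers. Chkb rose by 1.85 in MycF/F,ERT2-Cre and 1.80 in MycF/F livers, and Chpt1 by 1.69 in MycF/F,ERT2-Cre (2 other probes 0.77 and 1.46) and 1.59 in MycF/F livers. Sardh and Pipox, which both oxidise sarcosine, fell most in MycF/F,ERT2-Cre livers. Sardh (sarcosine dehydrogenase) fell by log2 changes of -1.40 in MycF/F,ERT2-Cre and -1.39 in MycF/F livers, and Pipox (peroxisomal sarcosine oxidase) by -1.47 in MycF/F,ERT2-Cre and -1.51 in MycF/F livers. Chdh, which makes the precursor of betaine, read 0.15, 0.24 and 0.14 in MycF/F,ERT2-Cre and 0.30 and 0.20 in MycF/F livers on Wy-14643, against -1.04, -1.20 and -1.15 in MycF/F,ERT2-Cre livers on control diet and -0.90 in the MycF/F control pool. Chdh rose by 1.30 in MycF/F,ERT2-Cre and 1.15 in MycF/F livers. Pcyt1a, which acts between Chkb and Chpt1, was at -0.02 in MycF/F,ERT2-Cre and -0.43 in MycF/F livers without passing.

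In the folate and glycine list 3 of 19 genes rose and 4 fell in MycF/F,ERT2-Cre livers, and none of 18 rose and 1 fell in MycF/F livers. Aldh1l1, which oxidises formyl-tetrahydrofolate, fell by log2 changes of -1.51 in MycF/F,ERT2-Cre and -1.59 in MycF/F livers, where 1 Wy-14643 array stood against 1 control array, so that its spread is taken from the other groups. Ftcd, which feeds histidine carbon into folate, fell by 0.67 in MycF/F,ERT2-Cre livers and gave no test in MycF/F livers. Fpgs, which adds glutamates to folates, rose by 1.06, and the mitochondrial folate carrier Slc25a32 by 0.61, in MycF/F,ERT2-Cre livers. Beyond Cth, 3 of 12 genes of cysteine, taurine and glutathione fell and none rose in MycF/F,ERT2-Cre livers, and 4 of 11 fell in MycF/F livers. Cdo1, which starts the breakdown of cysteine towards taurine, fell by log2 changes of -1.30 in MycF/F,ERT2-Cre and -1.80 in MycF/F livers. Got1, an aspartate aminotransferase, fell by -1.49 in MycF/F,ERT2-Cre and -1.93 in MycF/F livers on the same scale, and Sqor, which oxidises sulfide, by -1.13 in MycF/F,ERT2-Cre and -1.39 in MycF/F livers. Gclm, the modifier subunit of the first enzyme of glutathione synthesis, fell in MycF/F livers (-0.63).

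Other methyltransferases went both ways: 4 of 18 rose and 4 fell in MycF/F,ERT2-Cre livers, and 2 rose and 2 fell in MycF/F livers. Coq5, of ubiquinone synthesis, rose by 0.79 (another probe 0.45) and Mettl7b by 0.94, while Mettl7a1 fell by a log2 change of -0.79, all in MycF/F,ERT2-Cre livers. Mettl7a1 had a value on 1 of the 4 MycF/F,ERT2-Cre control arrays. Inmt, which methylates indoles, fell by log2 changes of -0.75 in MycF/F,ERT2-Cre and -0.92 in MycF/F livers. Of 5 tested genes of creatine handling besides Gamt, Ckb fell (-0.39 in MycF/F,ERT2-Cre and -0.67 in MycF/F livers), and Gatm, which supplies guanidinoacetate to Gamt, was at -0.39 in MycF/F,ERT2-Cre and -0.18 in MycF/F livers without passing.

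Around nicotinamide, the acceptor that Nnmt uses, 3 of 21 genes rose and 2 fell in MycF/F,ERT2-Cre livers, and 1 of 19 rose and 2 fell in MycF/F livers. Aox3, an aldehyde oxidase of mouse liver that can oxidise methylated nicotinamide, read -1.75, -1.17, -1.01 and -0.86 in MycF/F,ERT2-Cre and -1.45, -1.13 and -1.10 in MycF/F livers on Wy-14643, against 1.61, 0.74, 0.91 and 0.64 in MycF/F,ERT2-Cre livers on control diet and 0.57 in the MycF/F control pool. As with Nnmt, no Wy-14643 array reached a control-diet array, and Aox3 fell by log2 changes of -2.18 in MycF/F,ERT2-Cre and -1.79 in MycF/F livers. Afmid, a formamidase of the tryptophan route, fell by log2 changes of -0.35 in MycF/F,ERT2-Cre and -0.85 in MycF/F livers. Tdo2, the first enzyme of NAD synthesis from tryptophan, rose by 1.61 in MycF/F,ERT2-Cre and 1.65 in MycF/F livers. Qprt, further along that route, rose by 0.75 in MycF/F,ERT2-Cre livers. Its only values there were -0.955 and -0.57 on control diet and 0.12 and -0.14 on Wy-14643. In MycF/F livers Qprt was at 0.14 without passing. Nampt, which recycles nicotinamide to NAD, was at 0.23 in MycF/F,ERT2-Cre and 0.04 in MycF/F livers and passed in neither.

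**Figure D5:**
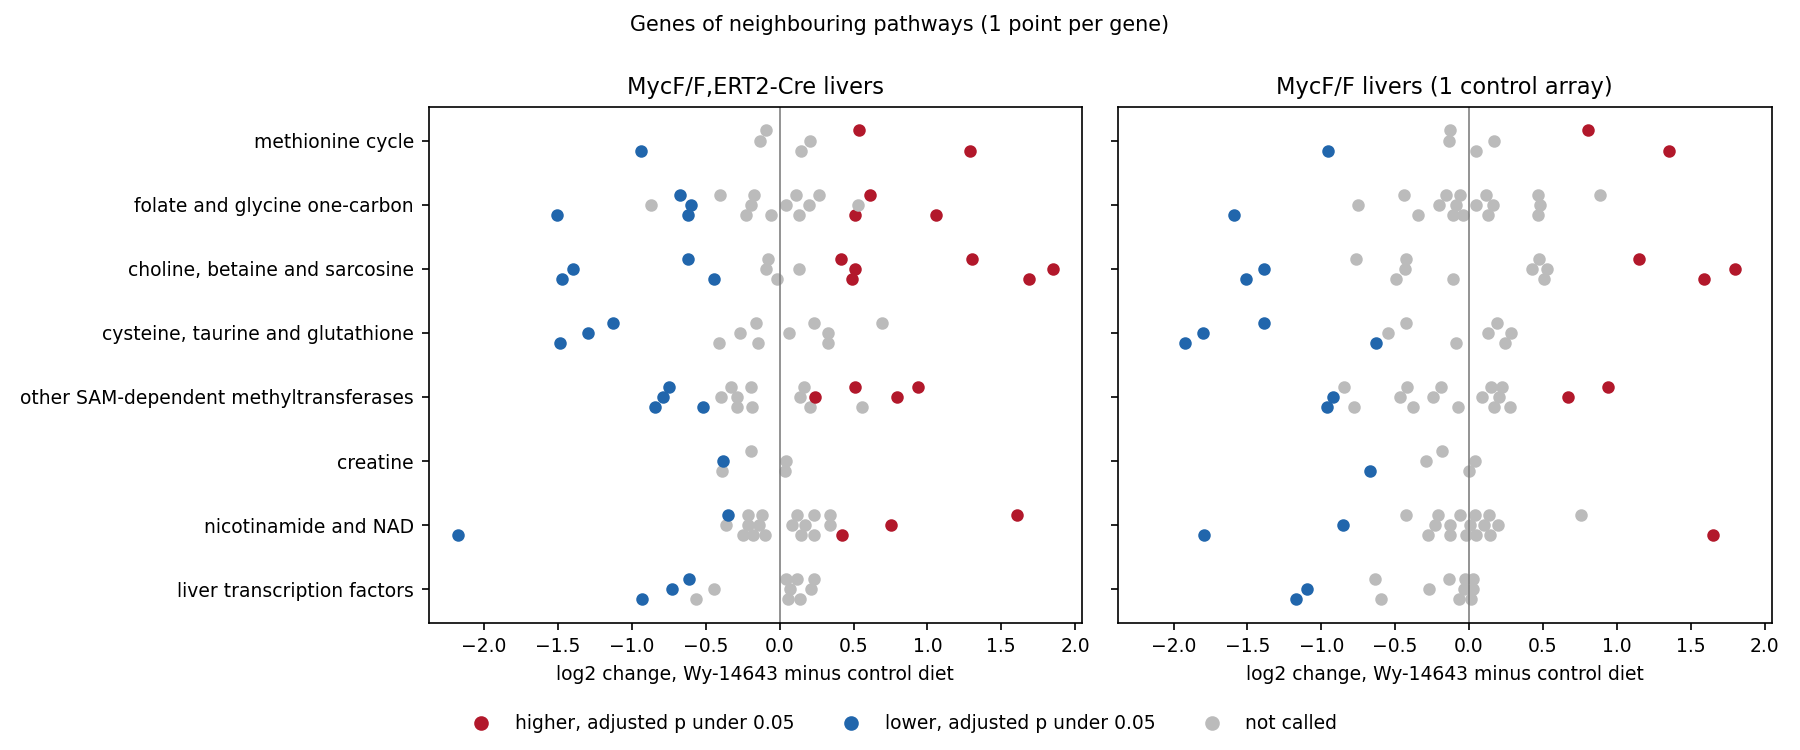
Log2 change on Wy-14643 against control diet of each gene tested in 8 lists of neighbouring pathways, in MycF/F,ERT2-Cre livers (left) and MycF/F livers (right, 1 control array); red and blue points are past limma's adjusted limit. Aox3 at -2.18 and Chkb at 1.85 are the outermost points in MycF/F,ERT2-Cre livers.

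Among liver transcription factors 3 of 12 fell and none rose in MycF/F,ERT2-Cre livers: Stat3 (log2 change -0.93), Cebpa (-0.73) and Nr1h4 (-0.61). In MycF/F livers Stat3 (-1.17) and Cebpa (-1.10) fell. Cebpa had a value on 1 control array in each genotype. Ppara itself was at 0.12 in MycF/F,ERT2-Cre and -0.07 in MycF/F livers, and Hnf4a, a main regulator of hepatocyte genes, at 0.04 in MycF/F,ERT2-Cre and 0.03 in MycF/F livers, and neither passed. No gene of these lists was past the limit in the genotype comparisons or in the difference of the diet effects.

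Genes whose pattern was most like Nnmt were taken as the 5 named genes with the highest Pearson r over the 12 arrays, out of 11640 with a value on each. The arrays share the reference RNA and slides and fall into separate diet clusters for Nnmt. For this reason r is also given for deviations from the group means over 11 arrays. Of the 11640 genes, 301 had an r above 0.9 over the 12 arrays, so a high r is not particular to the genes named here. The 5 genes were picked on these same arrays, so high deviation values and a shared highest array follow in part from the pick. They were Gpc4, a glypican (r = 0.981, deviations 0.841), Tmem14a (0.977, 0.699), Csf1, the macrophage growth factor (0.976, 0.892), Homer2 (0.976, 0.880) and F11, coagulation factor XI (0.976, 0.630). Their log2 changes in MycF/F,ERT2-Cre livers ran from -2.30 for F11 to -0.78 for Homer2, all smaller in size than that of Nnmt, and other probes of Tmem14a (-0.89) and Homer2 were at -0.34 and -0.42. Csf1 had its highest value (0.96) on the same control array as Nnmt, and so did Gpc4 (0.62), Tmem14a (0.58), Homer2 (0.62) and F11 (1.06). Gamt, Dmgdh and Gnmt, which were not picked by r, had 0.967, 0.955 and 0.936 over the 12 arrays and 0.31, 0.32 and -0.04 for deviations. Pemt had -0.20 and -0.53. Because of the pick, these deviation values cannot be set against those of the 5 genes.

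Cell markers also moved with the diet, and their part in the results above was not tested. The array holds 7 of 8 hepatocyte markers listed, all well above background on all 12 arrays, and 4 of the 7 fell in each genotype (median log2 change -0.81 in MycF/F,ERT2-Cre and -0.98 in MycF/F livers; Alb was at -1.31 and Serpina1c at -1.53 in MycF/F,ERT2-Cre livers). Of 7 periportal hepatocyte markers tested, 6 fell in MycF/F,ERT2-Cre and 5 in MycF/F livers, with Ass1, a urea cycle enzyme, at -2.65 and Etnppl at -2.60 in MycF/F,ERT2-Cre livers. The mean log2 ratio of the 8 periportal markers in the fit was taken on each array over the genes with a value there. It ran from -1.53 to -0.87 in MycF/F,ERT2-Cre and from -1.54 to -1.37 in MycF/F livers on Wy-14643. On control diet it was 0.50 to 0.97 in MycF/F,ERT2-Cre livers and 0.69 in the MycF/F control pool. Of 9 pericentral markers 3 fell in MycF/F,ERT2-Cre and 4 in MycF/F livers, among them Cyp1a2 and Lect2 (-1.83 and -0.96 in MycF/F,ERT2-Cre livers, Cyp1a2 with 1 control array), and none rose.

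Kupffer cell markers fell for 6 of 10 genes tested in MycF/F,ERT2-Cre and 3 of 9 in MycF/F livers, with Cd5l at -1.02 and Adgre1 at -0.82 (another probe -0.10) in MycF/F,ERT2-Cre livers. Of 9 endothelial markers 3 fell in MycF/F,ERT2-Cre (among them Eng at -0.53 and Stab1 at -0.55, with another Stab1 probe at -0.19) and 1 in MycF/F livers. Of 10 stellate cell and fibroblast markers 4 fell in MycF/F,ERT2-Cre (among them Col3a1 at -1.11, with another probe at -0.55, and Col1a1 at -1.10) and 1 in MycF/F livers, and of 6 cholangiocyte markers Sox9 rose and Spp1 fell in MycF/F,ERT2-Cre and none passed in MycF/F livers. None of these non-parenchymal markers was near background on any array. Between genotypes on Wy-14643 no marker passed, with a median difference of 0.39 over Kupffer cell markers and of 0.07 over hepatocyte markers. The Kupffer mean ran from -0.381 to -0.14 in MycF/F,ERT2-Cre and from -0.70 to -0.375 in MycF/F livers on Wy-14643, so the ranges overlapped. Like Gnmt and Pemt it was higher on average in MycF/F,ERT2-Cre livers, and a link between them was not tested.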

How the data were processed

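RNA of 12 liver samples was measured on 2-colour arrays read with Agilent Feature Extraction 11.0.1.1, per the submitters' processing notes. The deposited files hold each spot's median signal and local background as intensity values in both channels, and a log10 ratio of Cy5 over Cy3, per the file headers. Here intensities were background-corrected (normexp, offset 50), loess-normalised within arrays without control spots, and averaged per probe, leaving out spots the scanner software marked as outliers. Probes well above background in Cy5 on at least 3 arrays were kept (31861 of 41174), and the brightest kept probe stood for its gene. Gene names came from RefSeq. Groups were compared with lmFit and eBayes of limma 3.58.1 in R 4.3.3, with all 4 groups in 1 fit and Benjamini-Hochberg adjustment over all genes. The Myc probes and the second Pemt probe were tested in a like fit of all kept probes, with adjustment over those probes. The script was tested on simulated data. Alternatives covered slide, replicate number, deposited log ratio, Cy5 alone, outlier spots, the filter on dim probes, the choice of probe, and each array left out in turn.

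The genes, lists and tests were chosen with earlier results of these data known. All 10 genes are named, and from each list the 2 largest rises and 2 largest falls among genes called in MycF/F,ERT2-Cre livers, any called in another comparison, the 5 genes most like Nnmt and the diet and genotype checks. Nr1h4, Pcyt1a, Gatm, Nampt, Ppara and Hnf4a, named besides these, were chosen after their values were seen. Some genes that this rule names are not reported here.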

Additional observations from a re-analysis of the deposited data

How the results depend on the processing

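Of the values of the 10 genes under alternatives other than leaving out an array (500 in all), 467 kept their direction and their side of the limit, and of 570 values with 1 array left out 542 did. No value past the limit changed sign. Among the 10 genes, the number called for the diet in MycF/F,ERT2-Cre livers stayed between 5 and 7 and in MycF/F livers between 4 and 7. The count in MycF/F,ERT2-Cre livers without control replicate 1 includes a rise of Pemt. In the genotype comparison on Wy-14643 it was 1 with slide as a random block (Gnmt, adjusted p = 0.044) and 0 otherwise, and on control diet and for the difference of the diet effects it was 0 throughout.

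The counts over all genes moved more. In MycF/F,ERT2-Cre livers 4113 genes were called, against 1300 with Cy5 alone. In MycF/F livers 1626 were called, against 2831 without slide 1, 1054 with the deposited log ratios and 264 with Cy5 alone. For the genotypes on Wy-14643 27 were called, against 58 with slide as a random block, 107 without slide 1, 41 with outlier spots kept, 0 with the replicate block, with the deposited log ratios and with Cy5 alone, and 0 to 35 with 1 array left out. On control diet 0 were called, against 2 without slide 1 and 4 with Cy5 alone. The causes were not tested.

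Whether arrays with the same replicate number are paired could not be told, as only 4 such pairs lay on different slides. Their deviations correlated at -0.07 to 0.29, against -0.39 to 0.18 for differently numbered arrays on different slides. On 1 slide the values were 0.09 to 0.42 for same-numbered and 0.08 to 0.35 for differently numbered arrays. With the replicate number as a block 7 and 6 of the 10 genes were called for the diet in MycF/F,ERT2-Cre livers and in MycF/F livers, as without it, and these uncalled values turned: Mat1a 0.021 and Pemt 0.18 (diet in MycF/F), Nnmt -0.12 and Cth -0.058 (genotype on Wy-14643), Gnmt 0.12, Ahcy 0.12 and Gamt 0.013 (genotype on control diet) and Mat1a -0.17 (difference of effects).

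Other uncalled values that turned were as follows. With slide as a fixed block they were Cth -0.088 (genotype on control diet), and Cth 0.14 and Gamt 0.13 (difference of effects), and with slide as a random block Gamt 0.040. Without slide 1 they were Cth -0.16 (genotype on Wy-14643), Nnmt 0.061 and Cth -0.31 (genotype on control diet), and Cth 0.16 and Gamt 0.041 (difference of effects). With Cy5 alone they were Mat1a 0.15 and Pemt 0.021 (diet in MycF/F), Cth -0.16 (genotype on Wy-14643), Gamt 0.16 (genotype on control diet), and Mat1a -0.33 and Dmgdh -0.65 (difference of effects). With outlier spots kept they were Bhmt 0.13 (genotype on control diet) and Cth 0.057 (difference of effects). With 1 array left out, values spanned 0 for the diet in MycF/F,ERT2-Cre livers in Ahcy (-0.32 to 0.04). They did so for the genotype on Wy-14643 in Nnmt (-0.053 to 0.28), Cbs (-0.16 to 0.11), Cth (-0.12 to 0.22) and Gamt (-0.16 to 0.00104). On control diet they did so in Nnmt (-0.49 to 0.020), Gnmt (-0.095 to 0.066), Bhmt (-0.31 to 0.23), Ahcy (-0.33 to 0.039), Cth (-0.31 to 0.59) and Gamt (-0.13 to 0.021), and for the difference of effects in Bhmt (-0.00476 to 0.54), Cth (-0.54 to 0.37) and Gamt (-0.11 to 0.074). Calls that single genes lost or gained in MycF/F livers or between genotypes stand beside those genes above.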
